A study of Mus musculus with 6 samples.

Results

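Chemokines are small secreted proteins that guide cells, and 8 genes of this system are described here in the embryonic mouse pancreas: the ligands Cxcl12, Cxcl13, Cxcl14, Cxcl1, Cx3cl1 and Ccl2, the signalling receptor Cxcr4 and the atypical receptor Ackr3. They are 8 of the 24062 genes counted. The list was put together because Ackr3 and Cx3cl1 differed by at least 2-fold between genotypes in some of the sorted cell pools, so those ratios are given as a description and support nothing further. RNA was sequenced from cells of dorsal pancreatic buds that had been sorted by red (Tomato) and green (GFP) fluorescence, frozen and pooled. The 6 libraries stand for 6 groups, 1 library each: control and mutant epithelium at E12.5 (day of embryonic development), control and mutant mesenchyme at E12.5, and control and mutant epithelium at E14.5. Controls are labelled mTmG, a reporter whose cells are red until Cre recombinase turns them green, and the labels do not say how green cells arose in them. The mutant label includes mTmG+/-, Nkx2.5-Cre+/- and Pbx2+/-. Nkx2.5 is known as a gene of the mesenchyme around the dorsal pancreas, so a Cre driven from it acts on the neighbours of the epithelium.

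In the chemokine system a ligand binds a receptor that couples to inhibitory G proteins and steers the cell up the ligand's gradient. Cxcl12 signals through Cxcr4, while Ackr3 binds the same ligand without G protein signalling, takes it into the cell and so shapes its gradient. Cx3cl1, or fractalkine, is made as a membrane-anchored adhesion molecule, is cut free by the proteases Adam10 and Adam17, and is read by Cx3cr1, a receptor typical of macrophages. Cxcl12 is known as a mesenchymal signal in many developing organs, and Ccl2, which recruits monocytes through Ccr2, is made by macrophages and by stromal cells.

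Levels are CPM, each library's counts set relative to its TMM-scaled total. Each group is 1 pooled library, so no difference has a replicate check, and no test or p-value is given. A ratio of 2 libraries is followed by its exact 95% interval for counting error alone, and the interval is too narrow as a measure of the real error. Between the mesenchyme libraries, for example, log2 ratios of genes at 20 to 100 CPM spread with an SD of 0.39, against 0.08 from counting. A gene counts as measured if either of the compared libraries held 5 CPM or more of it, and as called if, in addition, the ratio was 2-fold or more and its interval did not include 1. A gene that passes the minimum through only 1 of the 2 libraries is more readily called toward that library. Pbx2 was 1.60-fold lower in the mutant mesenchyme (1.47 to 1.75), but 1.10-fold lower at E12.5 and 1.39-fold higher at E14.5 in the epithelium labelled mutant, so directions in the epithelium rest on the label. Library totals ran from 14032569 to 20276045 counts. Epithelial markers summed to 147 and 121 CPM in control and mutant mesenchyme and to between 3559 and 7725 CPM in the epithelial libraries. The epithelial libraries also held mesenchymal marker transcripts, at 6247 to 13839 CPM, against 12750 and 11339 CPM in the mesenchyme. In pooled cells, fewer cells of a type and less RNA per cell cannot be told apart.

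The stretch upstream of the start site is shown for Ackr3 and Cx3cl1, the genes called in the genotype pairs for which the list was made, and, beside them, for Cxcl12, the ligand that Ackr3 binds. Each line holds the 250 bases before the RefSeq start, 5′ to 3′. Capitals mark TATAAA (the TATA box) and GGGCGG (the GC box), each on either strand; TGATNNAT, a Pbx-Hox site, and TGACAG, a Meis or Pknox site, were searched too and would also be in capitals.
Ackr3 (GRCm38.p6, chr1:90203730-90203979, plus strand): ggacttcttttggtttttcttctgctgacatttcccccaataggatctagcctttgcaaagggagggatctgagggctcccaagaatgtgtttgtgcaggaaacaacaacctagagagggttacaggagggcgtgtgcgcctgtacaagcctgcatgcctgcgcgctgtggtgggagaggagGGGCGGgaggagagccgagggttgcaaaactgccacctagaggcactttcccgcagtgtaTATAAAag
Cx3cl1 (GRCm38.p6, chr8:94771930-94772179, plus strand): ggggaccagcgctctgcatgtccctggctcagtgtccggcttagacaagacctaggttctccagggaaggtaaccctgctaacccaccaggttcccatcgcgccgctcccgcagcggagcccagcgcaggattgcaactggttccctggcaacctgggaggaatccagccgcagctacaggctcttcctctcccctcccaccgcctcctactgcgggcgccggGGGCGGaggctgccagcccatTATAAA
Cxcl12 (GRCm38.p6, chr6:117168285-117168534, plus strand): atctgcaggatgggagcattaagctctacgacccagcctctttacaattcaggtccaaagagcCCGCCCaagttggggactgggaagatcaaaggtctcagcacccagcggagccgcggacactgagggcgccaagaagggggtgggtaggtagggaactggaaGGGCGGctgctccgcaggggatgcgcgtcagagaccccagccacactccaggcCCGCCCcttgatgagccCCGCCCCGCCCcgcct
Ackr3 holds 1 TATAAA, whose first base lies at -8 from the start, and 1 GGGCGG. Cx3cl1 likewise holds 1 TATAAA, at -6, and 1 GGGCGG, in a window where GENCODE M21 begins the gene at 94772009. Cxcl12 holds no TATAAA and 5 GGGCGG, of which a pair overlaps. Of the 8 genes 7 matched a RefSeq promoter, all but Ccl2. In windows of 300 bases, which run on for 50 bases past the start, TATAAA was found in 4 of the 7 and in 13.6% of 32851 RefSeq promoters, and GGGCGG in 5 of the 7 and in 35.7%. TGATNNAT was found in 8.85% of promoters and TGACAG in 19.2%, and in 0 of the 7. These are matches of letters only.

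Cxcl12 was the most abundant of the 8 genes in every library. It stood at 253 CPM (control) and 232 CPM (labelled mutant) in E12.5 epithelium, at 324 CPM (control) and 195 CPM (mutant) in mesenchyme, and at 207 CPM (control) and 297 CPM (labelled mutant) in E14.5 epithelium. Control mesenchyme was thus the highest and mutant mesenchyme the lowest, yet the whole range was 1.66-fold. That range is also the genotype ratio of the mesenchyme, 1.66-fold lower in the mutant (1.59 to 1.74), short of 2-fold. At E12.5 the epithelial libraries were within 1.09-fold of each other, with the labelled mutant lower in CPM and at a log2 ratio of 0.01 relative to epithelial markers, and at E14.5 the library labelled mutant was 1.43-fold higher (1.37 to 1.5). Control mesenchyme held 1.28-fold more Cxcl12 than control epithelium, so the transcript was not restricted to 1 fraction. Per kilobase of exon, which allows genes to be compared, Cxcl12 had the highest level of the 8 in all 6 libraries, from 23.8 to 39.7 CPM per kb.

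Ackr3, the scavenging receptor, had the widest range among Cxcl12, Ackr3 and Cx3cl1, the members above 5 CPM in every library. It stood at 29.9 CPM (control) and 44.7 CPM (labelled mutant) in E12.5 epithelium, at 64.8 CPM (control) and 31.5 CPM (mutant) in mesenchyme, and at 8.01 CPM (control) and 36.6 CPM (labelled mutant) in E14.5 epithelium. The control libraries held both ends of an 8.08-fold range, with the mesenchyme at the top and the E14.5 epithelium at the bottom, and the 3 mutant libraries lay between them. In that order the mutant mesenchyme and the E12.5 control epithelium were the only neighbours whose interval held 1 (1.06-fold, 0.936 to 1.19). In the mesenchyme Ackr3 was 2.06-fold lower in the mutant (1.84 to 2.30). In the epithelium the ratio went the other way: 1.5-fold higher in the library labelled mutant at E12.5 (1.34 to 1.67), short of the threshold, and 4.57-fold higher at E14.5 (3.73 to 5.64). On the mm10 assembly Ackr3 lies on chromosome 1 from 90203980 to 90216751, plus strand.

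Cxcr4, the receptor that signals, stayed below 5 CPM in every library and so was not measured in any comparison. It stood at 1.98 CPM (control) and 3.68 CPM (labelled mutant) in E12.5 epithelium, at 1.07 CPM (control) and 2.89 CPM (mutant) in mesenchyme, and at 3.70 CPM (control) and 3.45 CPM (labelled mutant) in E14.5 epithelium. Control mesenchyme was the lowest, where Ackr3 was the highest, and the mutant mesenchyme held 2.70-fold more (1.5 to 5.11). Per kilobase, Ackr3 exceeded Cxcr4 by 32.7-fold in control mesenchyme and 5.88-fold in mutant mesenchyme. In the epithelium the excess was 8.18-fold in the control and 6.52-fold in the library labelled mutant at E12.5, and 1.17-fold and 5.71-fold at E14.5. The atypical receptor was therefore the more abundant transcript of the pair in all 6 libraries, with the control epithelium at E14.5 close to parity. That library also stood apart in the ratio of ligand to scavenger: Cxcl12 exceeded Ackr3 per kilobase by 10.6-fold in the E14.5 control epithelium and by 2.05-fold to 3.48-fold in the other 5. Cxcr4 lies on chromosome 1 from 128588199 to 128592293, minus strand, on the same chromosome as Ackr3.

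**Figure D1:**
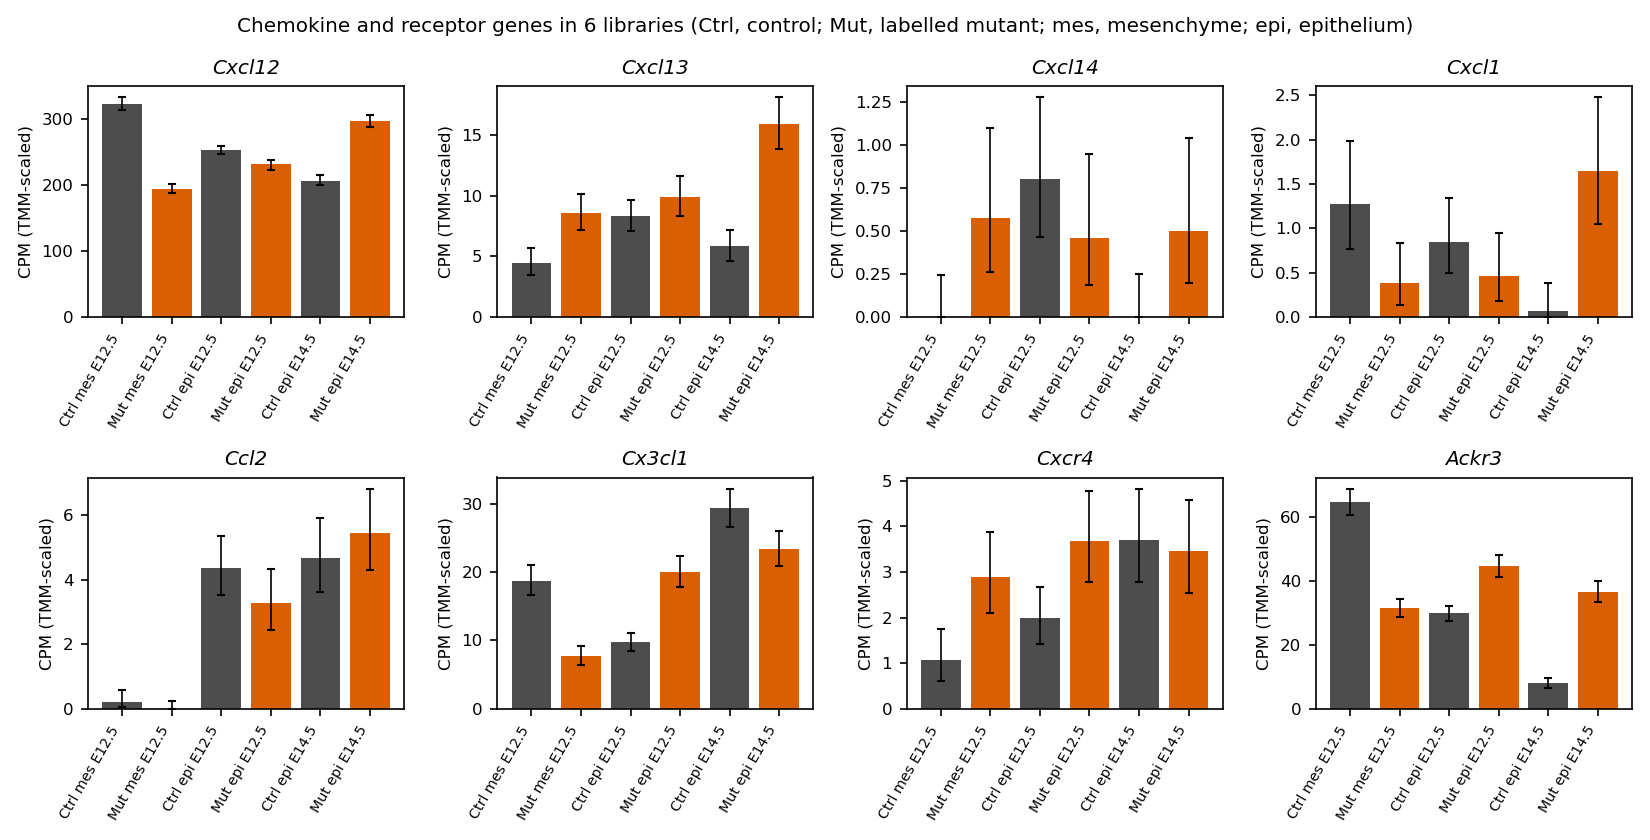
Levels of the 8 genes in the 6 libraries, in TMM-scaled CPM with exact 95% Poisson intervals for counting error. Cxcl12 stays between 195 and 324 CPM, Ackr3 runs from 8.01 CPM in the E14.5 control epithelium to 64.8 CPM in the E12.5 control mesenchyme, and Ccl2 is at or near 0 in the mesenchyme.

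Cx3cl1, the membrane-anchored ligand, differed between fractions in opposite directions in the 2 genotypes. It stood at 9.70 CPM (control) and 20 CPM (labelled mutant) in E12.5 epithelium, at 18.7 CPM (control) and 7.72 CPM (mutant) in mesenchyme, and at 29.3 CPM (control) and 23.3 CPM (labelled mutant) in E14.5 epithelium. The E12.5 libraries thus formed a high pair, control mesenchyme and labelled mutant epithelium, which differed by 1.07-fold (0.904 to 1.26), and a low pair, control epithelium and mutant mesenchyme, which differed by 1.26-fold (0.999 to 1.59). In the mesenchyme Cx3cl1 was 2.42-fold lower in the mutant (1.95 to 3.03). In the E12.5 epithelium it was 2.06-fold higher in the library labelled mutant (1.72 to 2.47), and at E14.5 it was 1.26-fold lower there (1.08 to 1.46). Cx3cl1 lies on chromosome 8 from 94772009 to 94782427, plus strand.

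The receptor of Cx3cl1, Cx3cr1, was mostly an epithelial-library transcript: 27.5 CPM in control and 16.0 CPM in labelled mutant epithelium at E12.5, 4.76 and 1.61 CPM in control and mutant mesenchyme, and 28.8 and 31.0 CPM in control and labelled mutant epithelium at E14.5. It followed the macrophage markers, of which 13 were summed (Csf1r, C1qa and Lyz2 among them). The sums were 457 and 285 CPM in control and labelled mutant epithelium at E12.5, 79.4 and 21.1 CPM in the mesenchyme, and 423 and 525 CPM at E14.5, and each marker had at least 1 read in every library. Per 1000 CPM of these markers Cx3cr1 was at 56.2 to 76.2 CPM in all 6 libraries, whereas Cx3cl1 did not follow them: the E12.5 control epithelium had the second-highest macrophage sum and the second-lowest Cx3cl1 level. The proteases that release Cx3cl1, Adam10 and Adam17, were called in 0 of the 7 comparisons.

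**Figure D2:**
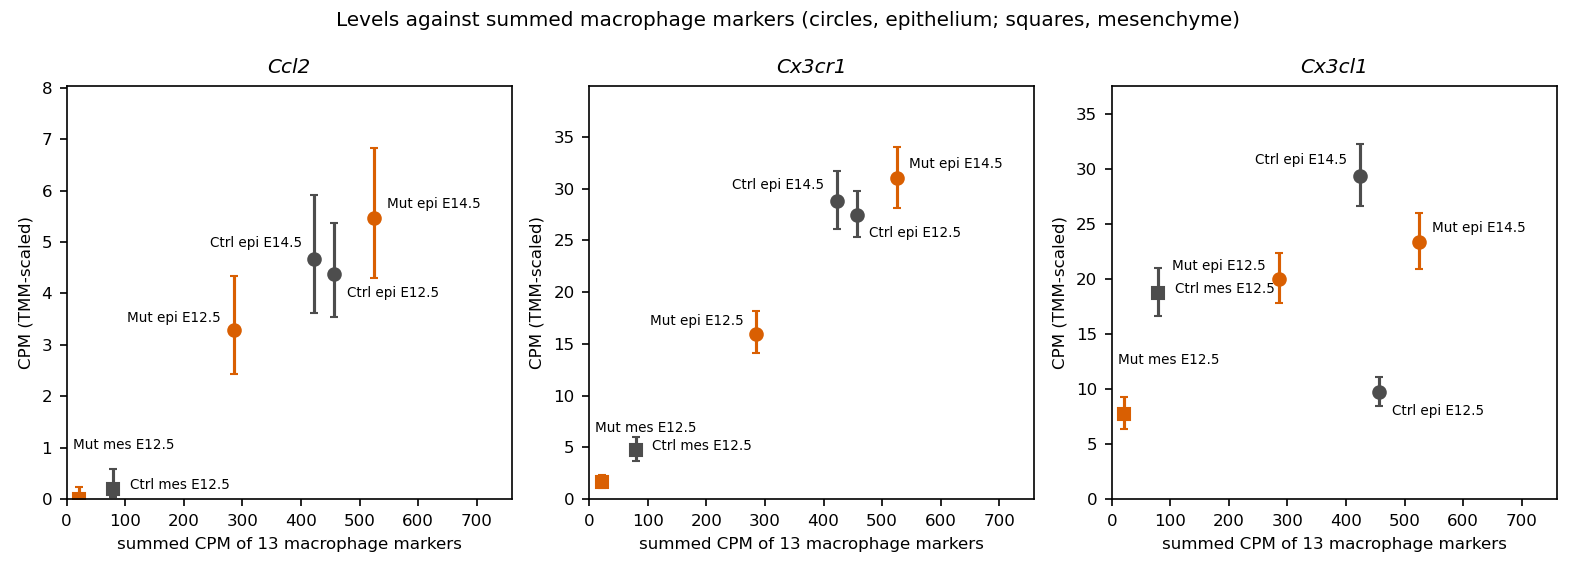
Ccl2, Cx3cr1 and Cx3cl1 in TMM-scaled CPM with 95% Poisson intervals (vertical axes), against the summed CPM of 13 macrophage markers (horizontal axes), 1 point per library. Ccl2 and Cx3cr1 are lowest in the mesenchyme libraries, where the markers sum to 79.4 and 21.1 CPM, while Cx3cl1 at 18.7 CPM in control mesenchyme lies above the E12.5 control epithelium at 9.70 CPM.

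Ccl2, the monocyte attractant, was almost confined to the epithelial libraries. It stood at 4.38 CPM (control) and 3.29 CPM (labelled mutant) in E12.5 epithelium, at 4.66 CPM (control) and 5.46 CPM (labelled mutant) in E14.5 epithelium, at 0.201 CPM (3 counts) in control mesenchyme and at 0 in mutant mesenchyme. The E14.5 library labelled mutant was the only one above 5 CPM, and the 4 epithelial libraries had neighbouring levels whose intervals held 1. The ends of that order, the libraries labelled mutant at E14.5 and E12.5, differed by 1.66-fold (1.15 to 2.42). Control mesenchyme was 21.8-fold lower than control epithelium (7.22 to 107), and mutant mesenchyme at least 17.0-fold lower than the epithelium labelled mutant, against a floor of 3 counts in that library, while the exact interval of 50 counts against 0 begins at 13.3-fold. Per 1000 CPM of macrophage markers Ccl2 was at 9.59 to 11.5 CPM in the epithelial libraries, at 2.53 CPM in control mesenchyme and at 0 in mutant mesenchyme. Its receptor Ccr2 was at 4.14 to 8.15 CPM in the epithelial libraries and had no read in either mesenchyme library.

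Cxcl13, a ligand best known for drawing B cells into lymphoid follicles, was present at a low level throughout. It stood at 8.29 CPM (control) and 9.86 CPM (labelled mutant) in E12.5 epithelium, at 4.49 CPM (control) and 8.55 CPM (mutant) in mesenchyme, and at 5.82 CPM (control) and 15.9 CPM (labelled mutant) in E14.5 epithelium. Each library labelled mutant was above its control, although at E12.5 in the epithelium the log2 ratio was -0.04 relative to mesenchymal markers. The ratio was 1.19-fold at E12.5 in the epithelium (0.95 to 1.49), 1.90-fold in the mesenchyme (1.41 to 2.59) and 2.73-fold at E14.5 (2.11 to 3.54). Per kilobase, Cxcl13 ranked second of the 8 genes in the E14.5 library labelled mutant, at 13.8 CPM per kb, ahead of Ackr3 at 10.9 CPM per kb.

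Cxcl14 and Cxcl1 were near the limit of detection. Cxcl14, a ligand expressed in many epithelia and fibroblasts, stood at 0.801 and 0.460 CPM in control and labelled mutant epithelium at E12.5 and at 0.503 CPM in the E14.5 library labelled mutant, with 0.579 CPM in mutant mesenchyme. It had no read in control mesenchyme or in the E14.5 control epithelium, where a count of 0 allows up to 0.201 and 0.205 CPM. Cxcl1, which attracts neutrophils, stood at 0.848 and 0.460 CPM in the E12.5 epithelium, at 1.27 and 0.386 CPM in the mesenchyme, and at 0.0685 and 1.65 CPM in the E14.5 epithelium, each time control first. The last pair is 1 count against 23, a ratio of 24.1 with a counting interval from 3.92 to 993, and in the order of the 6 Cxcl1 levels every interval between neighbours held 1. Neither gene was measured in any comparison.

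Of the 8 genes, 4 were measured in the mesenchyme, Cxcl12, Cxcl13, Ackr3 and Cx3cl1, and 2 of them, Ackr3 and Cx3cl1, were called lower in the mutant, where 3.50% of all 11188 measured genes were called lower. None was called higher (1.96% of all genes). Among measured genes with a mean of 20 to 100 CPM, the range of Ackr3, 1.21% were called lower, and among those at 5 to 20 CPM, the range of Cx3cl1, 8.35%. The members were chosen on this contrast, so these shares describe and do not weigh it. The median log2 ratio of the 4 was -0.89, against -0.01 over all measured genes. In the same libraries all 6 measured macrophage markers were called lower in the mutant, with a median of -1.80, as were 5 of 16 immediate early genes, a class known to react to handling of cells, and mesenchymal markers had a median of -0.25 with 1 of 22 called. Per 1000 CPM of mesenchymal markers, control and mutant mesenchyme held 5.08 and 2.78 CPM of Ackr3 and 1.47 and 0.681 CPM of Cx3cl1. Of other marker lists, 3 of 3 measured erythroid markers (sums 65.7 and 2.12 CPM, control first, Hbb-y 71.9-fold lower), 2 of 8 mesothelial markers (Lrrn4 and Rspo1) and 2 of 9 smooth muscle and pericyte markers (Rgs5 and Cspg4) were called lower, and 2 of 4 endothelial markers (Pecam1 and Plvap) higher. The 3 erythroid markers and Rspo1 passed the minimum only through the control, and Pecam1 and Plvap only through the mutant. The part of other cells and of handling in the lower Ackr3 and Cx3cl1 was not tested.

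In the E12.5 epithelium 1 of 4 measured members, Cx3cl1, was called higher in the library labelled mutant, against 1.79% of 11991 genes, and 0 lower, against 3.21%. Among genes with a mean of 5 to 20 CPM, the range of Cx3cl1, 4.07% were called higher. The list was made because of genotype ratios of Ackr3 and Cx3cl1, so these shares describe and do not weigh the call. Cx3cl1 in this pair and Ackr3 in the mesenchyme lay just inside the threshold, each at 2.06-fold, and Cxcl13 in the mesenchyme just outside it at 1.90-fold. Beside it, 4 of 11 smooth muscle markers were called higher (median 0.81, sums 266 and 509 CPM, control first), as were 2 of 9 mesothelial markers (398 and 495 CPM), and of 14 endothelial markers 1 was called higher and 1 lower (396 and 498 CPM). Of 12 measured macrophage markers 2 were called lower (457 and 285 CPM), and of 8 granulocyte and mast cell markers 3. The 1 erythroid marker measured, Hbb-y, was 56.4-fold higher here (202 counts against 5). It passed the minimum only through the library labelled mutant, as did the smooth muscle markers Actg2, Myh11 and Cnn1. Like Cx3cl1, Hbb-y was called lower in the mutant mesenchyme and higher in the epithelium labelled mutant. The mesothelial marker Rspo1 was too (7.21-fold lower and 2.06-fold higher), and mesothelial markers had median log2 ratios of -0.59 and 0.38 in these pairs. The part of these cells in the Cx3cl1 ratio was not tested. Relative to the mesenchymal markers, whose median ratio was taken as the reference, Cx3cl1 kept a log2 ratio of 0.75, which is under 2-fold. The deposited table of the E12.5 control epithelium differs from the other 5 in the form and date of its name, so an effect of the run, if that library was run separately, cannot be told apart from the group.

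At E14.5, 2 of 5 measured members, Ackr3 and Cxcl13, were called higher in the library labelled mutant, against 9.64% of 12145 genes, and 0 lower, against 6.40%. Among genes with a mean of 20 to 100 CPM, the range of Ackr3, 5.75% were called higher, and at 5 to 20 CPM, the range of Cxcl13, 17.4%. The list was made because of genotype ratios of Ackr3 and Cx3cl1, so these shares and the median of the members describe and do not weigh the pair. The median log2 ratio of the 5 members was 0.52, against -0.03 over all measured genes. Markers of other cells moved with them: 16 of 22 mesenchymal markers were called higher (median 1.17, sums 6771 and 13839 CPM), 9 of 11 smooth muscle, 6 of 10 neural, 3 of 9 mesothelial and 2 of 2 erythroid markers were called higher, and 8 of 19 epithelial markers were called lower (median -0.91, sums 7725 and 4292 CPM), as were 9 of 9 acinar and 5 of 9 granulocyte and mast cell markers. Of 14 endothelial markers 4 were called higher and 1 lower, and of 12 macrophage markers 4 higher and 0 lower. Some markers called higher, for example Hbb-y, Hba-x, Aif1 and Fcgr1, passed the minimum only through the library labelled mutant. Prss1 and Cela2a, called lower, passed it only through the control. Of 16 immediate early genes 4 were called lower and 0 higher (median -0.44, sums 4525 and 3558 CPM, control first). The part of these cells and of handling in the Ackr3 and Cxcl13 ratios was not tested. Relative to the mesenchymal markers Ackr3 kept a log2 ratio of 1.02, Cxcl13 came to 0.27, Cxcl12 to -0.65 and Cx3cl1 to -1.5. Relative to the epithelial markers the same values were 3.10, 2.36, 1.43 and 0.58. The choice of reference shifted the median of all genes by -1.17 and 0.91. Ackr3 was the only measured member at 2-fold or more higher on these 3 scales. The direction of Cxcl12, Cx3cl1 and Ccl2 (1.14 relative to epithelial and -0.94 relative to mesenchymal markers) turned with the scale. Smooth muscle markers, which were not used as a reference, had a median log2 ratio of 2.79, above the 2.19 of Ackr3 in CPM. Ackr3 per 1000 CPM of mesenchymal markers was 1.18 CPM in this control and 2.65 CPM in its labelled mutant counterpart, both below the 5.08 CPM of control mesenchyme.

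**Figure D3:**
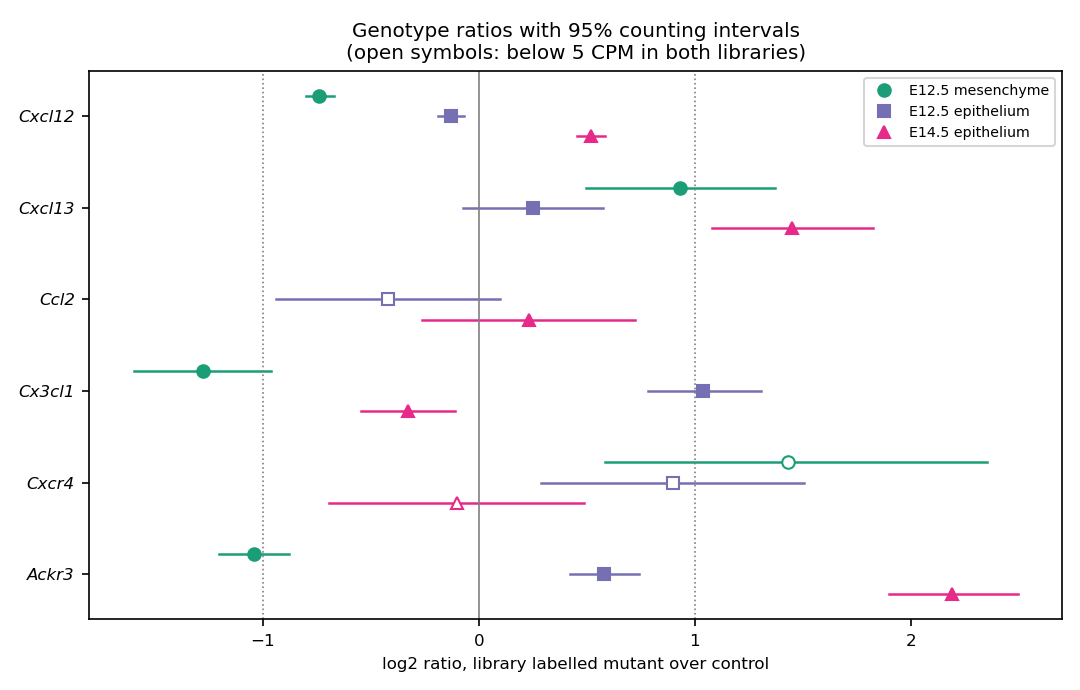
Log2 ratio of the library labelled mutant over its control in the 3 genotype pairs, with 95% counting intervals, for the listed genes except Cxcl14 and Cxcl1 (and Ccl2 in the mesenchyme, with no read in the mutant); open symbols mark genes below 5 CPM in both libraries and dotted lines mark 2-fold. Of the filled symbols, Ackr3 and Cx3cl1 lie left of the lower dotted line in the mesenchyme, Cx3cl1 lies right of the upper line in the E12.5 epithelium, and Ackr3 and Cxcl13 lie right of it in the E14.5 epithelium.

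**Figure D4:**
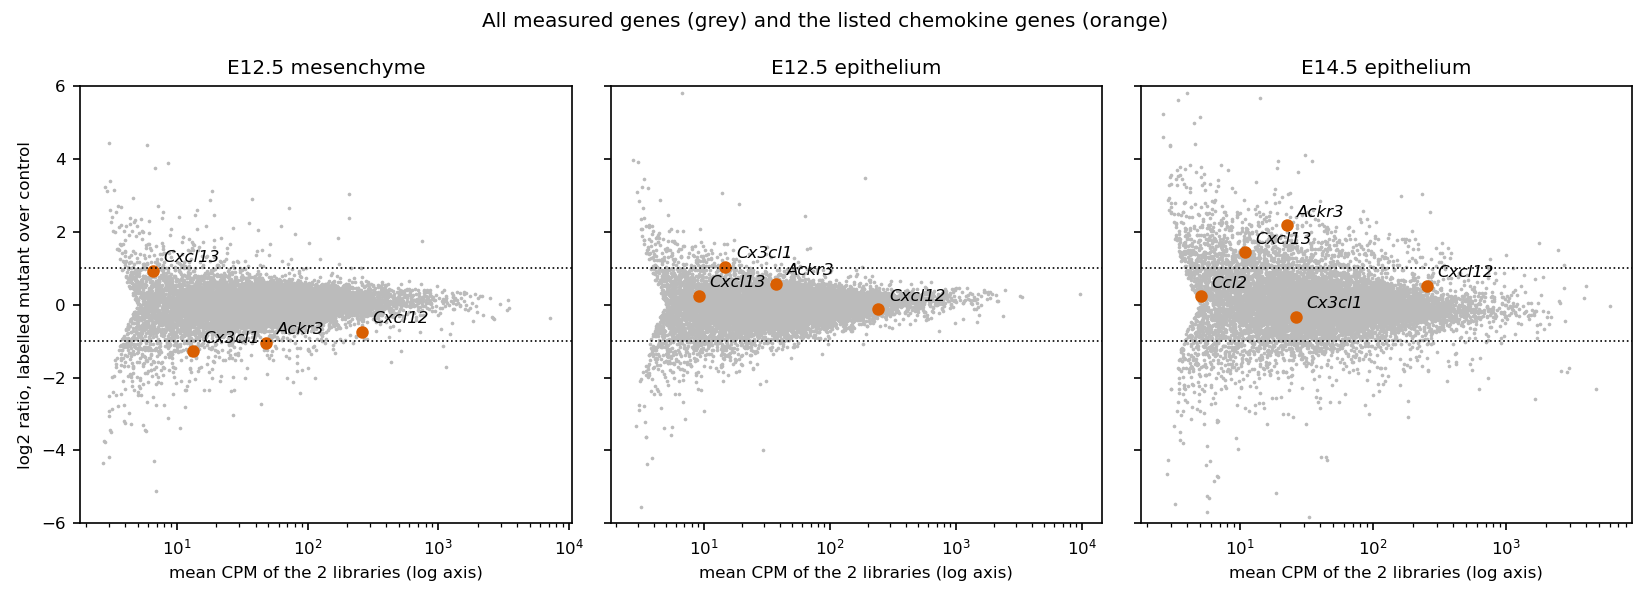
Log2 ratio of the library labelled mutant over control (vertical axis, drawn from -6 to 6) against mean CPM (horizontal, log axis) for all measured genes in grey and the listed chemokine genes in orange, in the 3 genotype pairs. Genes with no read in 1 library (4, 2 and 21 from left to right) and genes beyond the vertical axis (2, 2 and 9) are not drawn. Grey points spread most at low CPM and most in the E14.5 epithelium, where 9.64% of genes were called higher and 6.40% lower.

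Between fractions, the mesenchyme against the epithelium of the same genotype, Ackr3 was 2.17-fold higher in control mesenchyme (1.96 to 2.40), the only call among 4 measured members, where 7.00% of 12066 genes were called higher and 13.6% lower. Cx3cl1 was 1.93-fold higher there (1.61 to 2.32) and Cxcl13 1.84-fold lower (1.38 to 2.48), neither reaching 2-fold. In the mutant, Cx3cl1 was 2.59-fold lower in mesenchyme than in the epithelium labelled mutant (2.09 to 3.22), again the only call among 4, where 12.9% of 11956 genes were called lower and 5.42% higher. Ackr3 was 1.42-fold lower there (1.26 to 1.60) and Cxcl12 1.19-fold lower. In the control comparison 4.88% of genes with a mean of 20 to 100 CPM, the range of Ackr3, were called higher. In the mutant comparison 26.2% of those at 5 to 20 CPM, the range of Cx3cl1, were called lower. These fraction ratios use the same 4 libraries as the genotype ratios at E12.5, so they restate the levels and add no independent evidence. In the control ratios an effect of the run, if the E12.5 control epithelium was run separately, cannot be told apart from the fraction.

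Between stages, control epithelium at E14.5 held 3.73-fold less Ackr3 than at E12.5 (3.05 to 4.58) and 3.02-fold more Cx3cl1 (2.55 to 3.59), so 1 of 4 measured members was called lower, against 11.2% of 12136 genes, and 1 higher, against 6.53%. Among genes with a mean of 5 to 20 CPM, the range of Ackr3 and Cx3cl1 here, 20.2% were called lower and 9.42% higher. Over the same interval the epithelial libraries labelled mutant differed by less than 2-fold in each measured member: Ccl2 was 1.66-fold higher (1.15 to 2.42), Cxcl12 1.28-fold higher (1.23 to 1.34), Ackr3 1.22-fold lower (1.09 to 1.37), Cx3cl1 1.17-fold higher (0.996 to 1.37) and Cxcl13 1.61-fold higher (1.30 to 1.99). None of 5 measured members was called there, where 6.27% of 12167 genes were called higher and 5.89% lower. Whether the stage ratio differed between genotypes was not tested, and the stage and genotype comparisons share libraries. The control stage ratios rest on the E12.5 control epithelium, so an effect of the run, if that library was run separately, cannot be told apart from stage. Mesenchymal marker sums were 6247 and 6771 CPM in the control epithelium at E12.5 and E14.5, so Ackr3 per 1000 CPM of them went from 4.78 to 1.18 CPM. Of 22 measured mesenchymal markers, however, 4 were called higher and 4 lower at E14.5. Called lower, with 0 higher, were 5 of 13 endothelial, 3 of 9 mesothelial and 2 of 8 smooth muscle and pericyte markers (Rgs5 3.98-fold). Called higher, with 0 lower, were 7 of 19 epithelial and 9 of 9 acinar markers. Of 16 immediate early genes 7 were called higher in the control at E14.5 and 0 lower (median 0.87, sums 2891 and 4525 CPM, E12.5 first). That E14.5 sum was the highest of the 6 libraries. Between the libraries labelled mutant 5 were called higher and 0 lower (median 0.69). The part of these cells and of handling in the Ackr3 and Cx3cl1 stage ratios was not tested.

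Of 58 other chemokine ligands, receptors and atypical receptors in the tables, 11 reached 5 CPM in a library, 34 had reads below that and 13 had no read in any library. Those present were mostly genes known from myeloid cells: Pf4, Ccl3, Ccl6, Ccl9, Ccl24, Ccr1, Ccr2 and Cx3cr1. In control mesenchyme 4 of 6 measured ligands and 3 of 3 measured receptors were called lower than in control epithelium, as were 12 of 12 measured macrophage markers. Over all genes 13.6% were called lower in that comparison, and 26.4% of those at 5 to 20 CPM. In the E12.5 epithelium labelled mutant 3 of 6 measured ligands were called lower (3.21% of all genes, 7.66% of those at 5 to 20 CPM) and 0 higher (1.79%): Ccl3 (2.36-fold), Ccl6 (2.38-fold) and Ccl9 (2.2-fold). Gpr182, an atypical receptor of endothelial cells, was 2.94-fold higher there (2.12 to 4.13). In the E14.5 library labelled mutant 1 of 5 measured ligands and 1 of 3 measured receptors were called higher, and 0 lower. Ccl24, an eosinophil attractant, was 11.8-fold higher (90 counts against 8, 5.74 to 28.2) and the receptor Ccr1 2.56-fold higher (1.95 to 3.39). Beside them 4 of 12 macrophage markers, 9.64% of all genes and 17.4% of those at 5 to 20 CPM were called higher. Gpr182 at E12.5 and Ccl24 at E14.5 passed the minimum only through the library labelled mutant. Ccl25, a ligand of thymus and gut, stood between 4.00 and 6.98 CPM in all 6 libraries and Ccl27a between 6.88 and 9.79 CPM, the latter with near-identical copies that may share its reads.

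**Figure D5:**
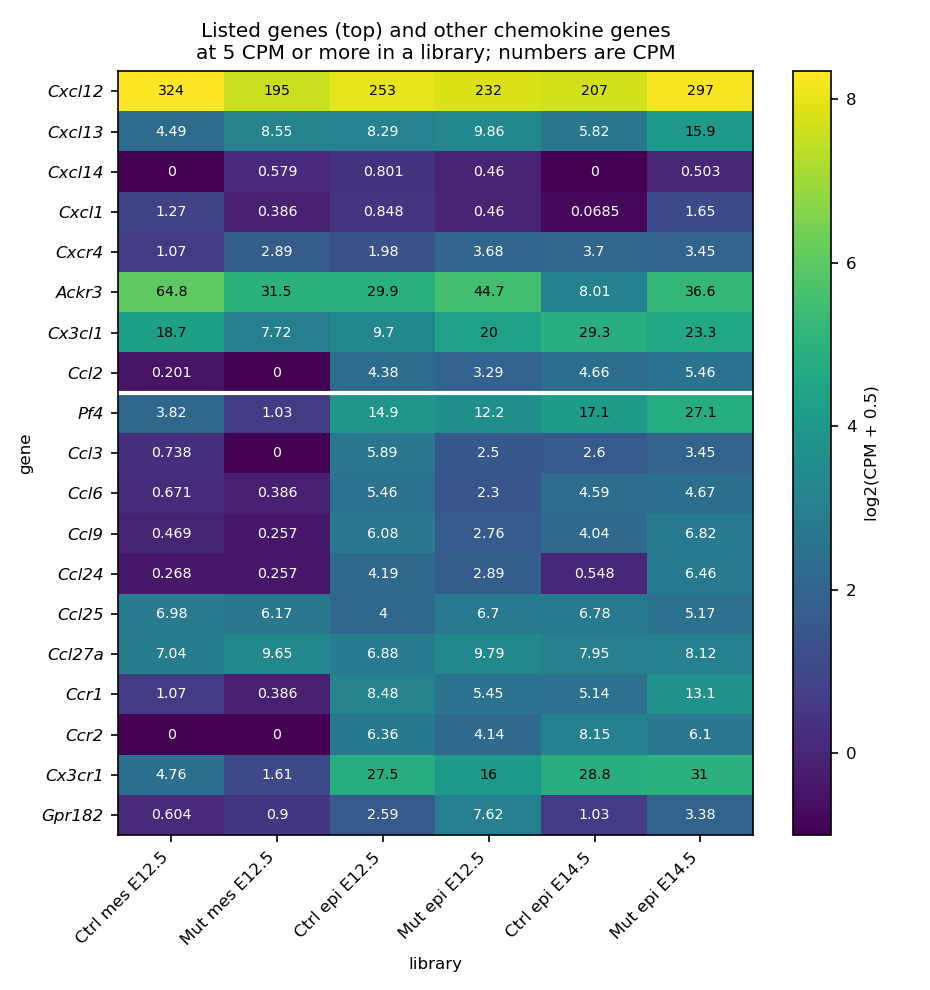
Levels of the 8 listed genes (above the white line) and of the 11 other chemokine genes that reached 5 CPM in a library (below it), 1 column per library; colour is log2(CPM + 0.5) and the printed numbers are CPM. The myeloid genes Pf4, Ccr1, Ccr2 and Cx3cr1 are dark in the mesenchyme columns, and Cxcl12 is bright in every column.

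A list of 18 genes that relay, cleave or share the chemokine signal held 17 measured genes in each genotype pair. In the mesenchyme 3 were called higher in the mutant (1.96% of all genes) and 0 lower (3.50%). Grk5, a kinase that phosphorylates receptors of this class and so uncouples them, went from 12.1 CPM (control) to 38.5 CPM (mutant), a 3.19-fold ratio (2.69 to 3.78). Adrenomedullin (Adm), a peptide that Ackr3 can also bind and clear, stood at 1.01 and 5.85 CPM (5.82-fold, 3.35 to 10.8), and Ramp3, a subunit of its receptor, at 18.3 and 36.7 CPM (2.0-fold, 1.73 to 2.32). Adm passed the minimum only through the mutant library. In the E12.5 epithelium 0 of 17 were called, against 1.79% of all genes higher and 3.21% lower. At E14.5, 9.64% of all genes and 17.4% of those at 5 to 20 CPM were called higher in the library labelled mutant. Of the 17, 6 were called higher and 0 lower: Arrb1, Adrbk2 (Grk3), Grk5, Calcrl, Ramp2 and Ramp3. Ramp3 had the largest of these ratios, 1.92 and 16.3 CPM (8.50-fold, 5.73 to 13.1), and Calcrl, the adrenomedullin receptor itself, stood at 6.78 and 19.7 CPM (2.91-fold, 2.31 to 3.70). Arrb1, Grk5 and Ramp3 passed the minimum there only through the library labelled mutant. The inhibitory G protein subunits Gnai2 and Gnai3 and 6 more of the 18 were called in 0 of the 7 comparisons, while the third such subunit, Gnai1, was called lower in mesenchyme than in epithelium in the control (2.31-fold, 2.05 to 2.59) and in the mutant (2.17-fold, 1.87 to 2.51).

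The genes whose profile over the 6 libraries was nearest to that of Ackr3, by the root mean square difference of centred log2(CPM + 0.5) values among 12300 genes, were Pla2r1 (0.19), Glrb (0.20) and Foxp2 (0.21). Foxp2, for example, stood at 29.0 CPM in control mesenchyme, 17.9 CPM in mutant mesenchyme and, at E14.5, 3.01 CPM in control and 15.9 CPM in labelled mutant epithelium. The genes nearest to Ccl2 were Rtn1 (0.13), Steap1 (0.16) and Apoe (0.17), and Apoe stood at 346 and 56.6 CPM in control epithelium and control mesenchyme at E12.5. Cxcl12, Cxcl13 and Cx3cl1 varied by less than 4-fold on this scale (1.66, 3.28 and 3.63) and were not compared. These are nearness values over 6 libraries that also differ in cell makeup.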

How the data were processed

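Raw counts per gene were deposited by the authors as 1 table for each of the 6 libraries, and were not normalised, per the files. The table names call the counts deduplicated, which lowers counts of abundant genes such as Cxcl12. Cuffdiff 2.2.1, Cufflinks 2.2.1 and the build mm10 are listed in the submitters' processing notes. Which aligner, counter and annotation were used, and whether strand was, is not given in the sources used here. The 5 summary lines of each table stayed out of totals (reads on no gene 4.69% to 8.84%, ambiguous 1.53% to 1.72%, not unique 13.7% to 20.1%). From the counts, TMM factors (0.941 to 1.05) were computed with edgeR 4.0.16 in R 4.3.3, and all else with Python 3.11.15, numpy 2.4.6, scipy 1.17.1, pandas 2.3.3 and matplotlib 3.10.9. With 1 library per group no model was fitted. Ratios carry exact 95% conditional binomial (Clopper-Pearson) intervals and levels exact Poisson intervals, which, like the floor of 3 counts, cover counting error only, since no molecular identifiers separate the reads of 1 molecule from those of another. On simulated counts 95.3% of these intervals held the true ratio (E12.5 mesenchyme genotype pair, 10970 genes). Those counts were drawn with Poisson error alone, the model that the interval assumes. The figure therefore checks the calculation and says nothing of the real error. Exon lengths and positions came from GENCODE M21 and promoters from RefSeq GRCm38.p6. No annotated gene overlapped the exons of the 8 genes.

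The members, lists and thresholds were chosen with earlier results of these data known. Named genes were the 8 members, other chemokine genes at 5 CPM or more in a library, pathway partners called in a genotype pair, and for members spanning at least 4-fold the 3 genes of nearest profile. Further pathway genes named as called nowhere were chosen after their values were seen. Alternatives were DESeq2 1.42.0 size factors, plain CPM, call thresholds of 4-fold and 1.5-fold, a minimum level of 1 CPM, of 20 CPM or of no size, calls made without the interval, libraries thinned to the smallest total, and, for the epithelium, ratios relative to epithelial or mesenchymal markers. 1 further allele in the mutant label is not reported here.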

Additional observations from a re-analysis of the deposited data

Results flagged for a closer look

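For 3 of the genes the genotype ratio turned its direction between cell fractions or stages. Each rests on 1 library per group, the difference was not tested, and the intervals cover counting error only. Each difference also includes the E12.5 control epithelium, and an effect of the run, if that library was run separately, cannot be told apart.

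Ackr3 was lower in mutant mesenchyme and higher in the E12.5 epithelium labelled mutant, and the log2 ratio in epithelium exceeded that in mesenchyme by 1.62 (1.40 to 1.84). Cx3cl1 had the same opposite directions, with a difference of 2.32 (1.92 to 2.72). The list was made because of genotype ratios of Ackr3 and Cx3cl1, so their differences describe and support nothing further. For Cx3cl1 the log2 ratio at E14.5 in the epithelium was also below that at E12.5, by -1.37 (-1.70 to -1.04). Cxcl12 was lower in the E12.5 and higher in the E14.5 epithelium labelled mutant, a difference of 0.65 (0.56 to 0.74), but neither direction held on every scale: relative to epithelial markers the E12.5 ratio was 0.01, and relative to mesenchymal markers the E14.5 ratio was -0.65. The E14.5 direction of Cx3cl1 also turned, to 0.58, relative to epithelial markers.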

How the results depend on the processing

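Size factors from DESeq2, plain CPM, no interval condition and thinned libraries left the number of called members in each of the 7 comparisons as reported, and 0 values under any alternative turned the direction of a called ratio. The minimum level and the fold threshold moved the counts, since fewer or more genes then pass by construction. In the mesenchyme pair, with 2 called, 4 were called at a minimum of 1 CPM, 1 at 20 CPM, 5 with no minimum, 4 at 1.5-fold and 0 at 4-fold. In the E12.5 epithelium pair, with 1 called, 0 were called at 20 CPM, at 4-fold and relative to the mesenchymal markers. In the E14.5 pair, with 2 called, 1 was called at 20 CPM, 4 with no minimum, 1 at 4-fold and 4 relative to the epithelial markers, and relative to the mesenchymal markers 1 was higher and 1, Cx3cl1, lower. In the control fraction comparison, with 1 called, 2 were called at 1 CPM, 3 with no minimum, 3 at 1.5-fold and 0 at 4-fold. In the mutant fraction comparison, with 1 called, 2 were called at 1 CPM, 0 at 20 CPM, 2 with no minimum and 0 at 4-fold. In the control stage comparison, with 2 called, 4 were called with no minimum and 0 at 4-fold. In the stage comparison of the libraries labelled mutant, with 0 called, 1 was called at 1 CPM, 1 with no minimum and 2 at 1.5-fold. Of the members' own ratios, 17 moved past their counting interval and 91 did not.

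Over all genes, ratios relative to the epithelial markers called 40.7% higher and 1.30% lower at E14.5, and relative to the mesenchymal markers 1.61% and 65.0%. Plain CPM moved the median of all genes by -0.16 in the control stage comparison, where 573 genes were then higher and 1786 lower. Low counts limit what these libraries can show of Cxcr4, Cxcl1 and Cxcl14, below 5 CPM in all 6, and of Ccl2, above 5 CPM in 1. No paired analysis was possible because each group is 1 library.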
